A study of Mus musculus with 10 samples.

Results

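The 10 genes described here, *Pla2g4a*, *Ptgs1*, *Ptgs2*, *Ptges*, *Ptgis*, *Slco2a1*, *Hpgd*, *Ptger2*, *Ptger4* and *Ptgfr*, release the precursor of prostaglandins, make them, carry them into cells, inactivate them and receive their signal. They were chosen by name for these roles out of the 45706 gene identifiers counted, with earlier results of these data known. All 10 had enough reads to be tested. Uterine mRNA was sequenced on gestation day (GD) 3.5 in 2 genotypes. The 5 controls were *Arid1a* f/f mice, and the 5 conditional knockouts, called knockout from here on, were of the genotype *Ltf* iCre/+ *Arid1a* f/f. The mice were 12 to 15 weeks old, of a mixed C57BL/6, 129S6/SvEvTac, 129P2/OlaHsd and 129S1/SvImJ background, and pregnant by wildtype males. All of them carried the floxed alleles of *Arid1a*, which encodes a subunit of a chromatin remodeling complex. The iCre recombinase, driven from 1 copy of the lactoferrin gene *Ltf* and active in the adult endometrial epithelium and reported also in some myeloid immune cells, was present in the knockouts only. Effects of the Cre insertion itself and of the *Arid1a* deletion therefore cannot be told apart. Each library came from a frozen piece of 1 uterus that held epithelium, stroma, muscle, vessels and immune cells together, so that fewer cells of a type and less RNA per cell cannot be told apart.

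Prostaglandins are short-range lipid signals. Phospholipase A2 frees arachidonic acid from membranes, the cyclooxygenases encoded by *Ptgs1* and *Ptgs2* turn it into prostaglandin H2, and terminal synthases convert this into prostaglandin E2 (PGE2), prostacyclin, prostaglandin F2 alpha and others, which act on G protein-coupled receptors. In the mouse uterus this pathway serves vascular permeability, implantation and decidualization, and later the contractions of labor. *Ptgs2* is the inducible cyclooxygenase, whereas *Ptgs1* is the one most tissues express steadily.

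Promoter windows of the cyclooxygenase pair and of the receptor gene *Ptger4* are shown because *Ptgs2* rose, *Ptger4* fell and *Ptgs1* passed no test in the comparison given further on. They are RefSeq sequences of GRCm38.p6, from 250 bases before to 50 bases after the gene start, at chr1:150099781-150100080 on the plus strand (*Ptgs2*), chr2:36230176-36230475 on the plus strand (*Ptgs1*) and chr15:5244138-5244437 on the minus strand (*Ptger4*). Capitals mark matches, on either strand, to 6 motifs that were chosen after the sequences had been seen. The letters TTGCGCAA stand for a site of the C/EBP factors. The letters CGTCA stand for the core of the cyclic AMP response element, which is bound by proteins of the CREB family. The letters CACGTG stand for the E-box, which is bound by many helix-loop-helix proteins. The letters GGGCGG stand for the GC box, which is known as a site of Sp1 and its relatives. The letters TATAAA stand for the box near which the transcription machinery often assembles, and the CCAAT box was searched as the letters of its name.
Ptgs2: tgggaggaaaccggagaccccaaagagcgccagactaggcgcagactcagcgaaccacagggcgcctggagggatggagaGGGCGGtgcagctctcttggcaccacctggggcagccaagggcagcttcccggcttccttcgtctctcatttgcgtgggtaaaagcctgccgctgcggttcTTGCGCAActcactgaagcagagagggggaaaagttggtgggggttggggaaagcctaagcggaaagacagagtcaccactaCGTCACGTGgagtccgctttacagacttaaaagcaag
Ptgs1: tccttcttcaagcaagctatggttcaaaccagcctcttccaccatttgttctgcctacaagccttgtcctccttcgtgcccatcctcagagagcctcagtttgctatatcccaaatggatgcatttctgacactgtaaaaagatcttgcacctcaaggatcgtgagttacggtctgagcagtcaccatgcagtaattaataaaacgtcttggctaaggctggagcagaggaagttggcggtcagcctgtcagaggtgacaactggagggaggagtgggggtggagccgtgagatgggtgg
Ptger4: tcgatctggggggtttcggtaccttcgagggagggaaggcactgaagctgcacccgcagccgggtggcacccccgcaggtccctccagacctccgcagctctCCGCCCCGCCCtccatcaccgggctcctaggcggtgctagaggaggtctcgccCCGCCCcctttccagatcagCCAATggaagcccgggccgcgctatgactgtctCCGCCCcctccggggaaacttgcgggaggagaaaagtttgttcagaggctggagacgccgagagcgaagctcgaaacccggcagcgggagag
The *Ptgs2* window held 1 match each to the C/EBP site, the response element core, the E-box and the GC box, of which the response element core and the E-box shared letters. The *Ptger4* window held 4 GC boxes, of which a neighboring pair shared 1 letter, and 1 CCAAT box, and the *Ptgs1* window held none of the 6 motifs. Of all 32851 windows, 0.183% held the C/EBP letters, 20.8% the response element core, 7.15% the E-box, 35.7% the GC box, 37.4% the CCAAT box and 13.6% the letters TATAAA. These matches describe the letters only. RefSeq windows were found for 9 of the 10 genes, with *Ptgis* the exception.

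The libraries held 65351817 to 72702411 counts in controls and 59296537 to 67990486 in knockout uteri. Expression is given as CPM, the counts of a gene scaled to a common library total. *Arid1a* stood at 251, 210, 213, 192 and 197 CPM in control uteri 1 to 5 and at 208, 191, 179, 182 and 165 CPM in knockout uteri 1 to 5. Its log2 fold change of -0.20 did not pass the test (adjusted p = 0.201). These counts over the whole gene thus do not show the deletion. Stroma and muscle were not the target of the iCre, and their part in this result was not tested. Markers of uterine muscle and stroma were abundant in every library. None of the 8 muscle markers passed the test, but all 8 had log2 fold changes below 0, with a median of -0.48 and summed levels that overlapped at 5370 to 9930 CPM in controls and 2860 to 7880 CPM in knockout uteri. Of the 8 stromal markers 1 passed (*Dcn*, lower), with summed levels of 14000 to 21000 and 11900 to 21500 CPM. Of the epithelial markers 7 of 10 passed as higher, with a summed level of 824 to 1110 CPM in controls and 1250 to 2600 CPM in knockout uteri. Of the endothelial markers 7 of 8 passed as lower (summed level 821 to 1120 against 408 to 555 CPM). Of the gland markers 2 of 7 passed as lower (84.0 to 129 against 13.7 to 54.0 CPM). All 7 gland markers had log2 fold changes below 0, with a median of -1.89. Without knockout uteri 1 and 5, 5 of them passed as lower, where 9.41% of all genes passed in either direction. With all uteri, 5.19% of all genes passed as higher and 4.51% as lower. Libraries 1 and 5 of the knockout group stood apart from the other 3 in some markers, not in all and not in 1 direction. The gland gene *Wfdc3* was at 0.470 and 0.666 CPM in them and at 2.86 to 3.69 CPM in the others. The gland gene *Foxa2* overlapped, at 4.48 and 5.15 against 4.55 to 8.58 CPM. Of the epithelial genes, *Epcam* was higher in libraries 1 and 5, at 330 and 322 CPM against 104 to 137 CPM. *Cldn3* (78.7 and 59.2 against 155 to 187 CPM) and *Cldn4* (22.0 and 35.8 against 46.6 to 57.1 CPM) were lower in them. Library 5 alone held 916 CPM of neutrophil markers, against at most 33.1 CPM in the other knockout uteri and 34.8 CPM in controls. It also held 670 CPM of macrophage markers, against at most 348 CPM in the other knockout uteri and 339 CPM in controls. Of the 8 macrophage markers, 0 passed the test between genotypes. The part of these cell type differences in the results on prostaglandin genes was not tested, and the counts over the 10 genes, the receptors and the wider pathway are given also without libraries 1 and 5.

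Of the 10 prostaglandin genes, *Ptgs2* rose and *Ptger4* fell in knockout uteri, and the other 8 did not pass the test (edgeR quasi-likelihood test, adjusted p under 0.05). Of all 25146 genes tested, 9.70% passed in either direction, 5.19% as higher and 4.51% as lower, and the count of 2 out of 10 is not read as a feature of the set. The median log2 fold change of the 10 was -0.08, against 0.03 over all genes tested. DESeq2 also called 2 of the 10, where it called 19.0% of its genes. Without knockout uteri 1 and 5, where 9.41% of all genes were called, *Pla2g4a* was called as well. The genotypes did not overlap for *Ptger4* and *Ptgfr*, both lower, and for none of the 10 as higher. Among all genes 10.7% showed no overlap, 5.16% as lower and 5.53% as higher.

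**Figure D1:**
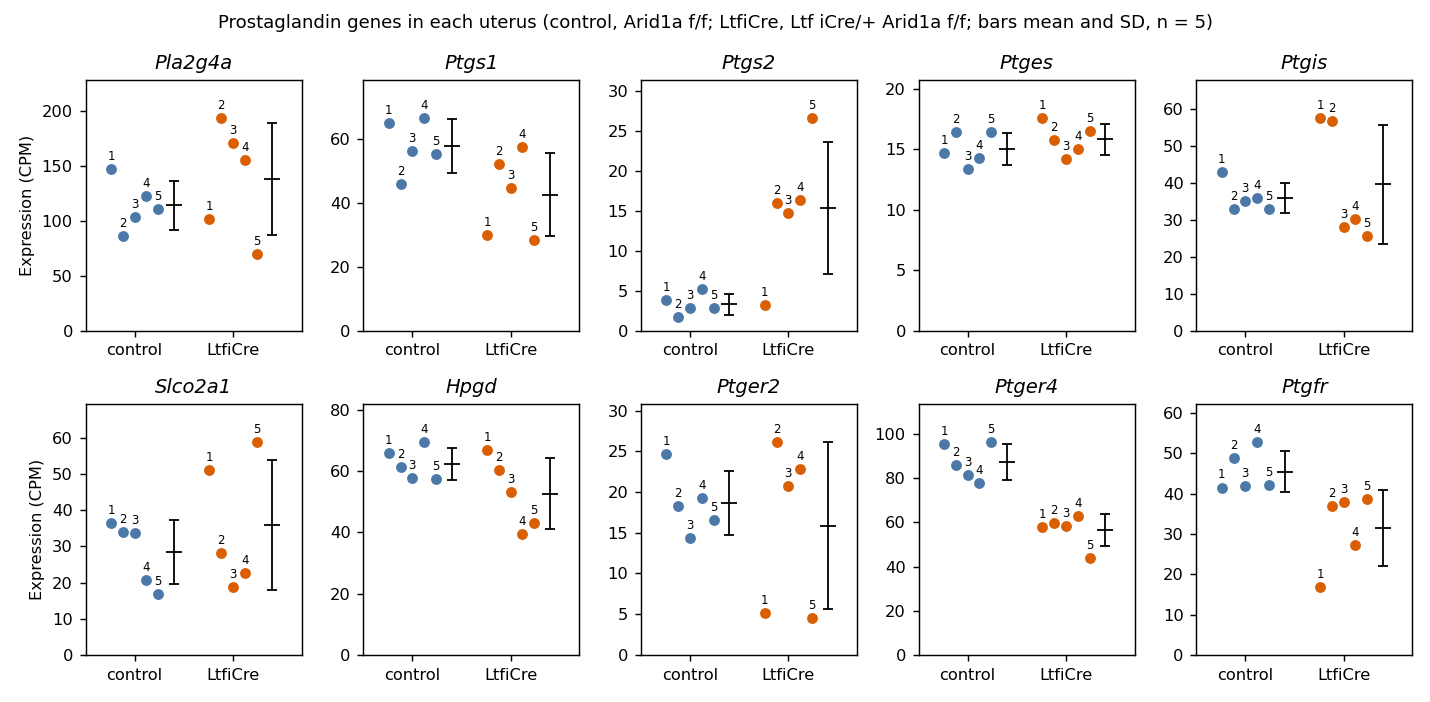
Expression (CPM, linear axes from 0) of the 10 prostaglandin genes in each control and knockout uterus, with the replicate number over each point and the mean and SD of 5 uteri as bars. *Ptgs2* lies above all controls in 4 of 5 knockout uteri, *Ptger4* and *Ptgfr* lie below all controls in all 5, and uteri 1 and 5 are the lowest of their genotype for *Ptgs1*, *Ptger2* and *Pla2g4a* and the highest for *Slco2a1*.

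*Pla2g4a*, the cytosolic phospholipase A2 that frees arachidonic acid, did not differ beyond the spread between uteri. It stood at 147, 86.3, 104, 123 and 111 CPM in controls and at 102, 194, 171, 156 and 70.1 CPM in knockout uteri. Uteri 2, 3 and 4 were above all controls, whereas uterus 5 was below all of them. The log2 fold change was 0.28 (SE 0.25, adjusted p = 0.533), and it was 0.60 (adjusted p = 0.0294) without uteri 1 and 5. *Pla2g4a* spans chr1:149829618-149961290 on the minus strand, and its start lies 139 kb from *Ptgs2*.

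The 24 phospholipases and related lipases counted, *Pla2g4a* among them, included 21 that could be tested, of which 3 rose and 1 fell, beside 5.19% higher and 4.51% lower among all genes. *Pla2g7*, which encodes the platelet-activating factor acetylhydrolase of plasma, rose from 15.5 ± 1.83 to 47.7 ± 21.7 CPM (SD, n = 5; log2 fold change 1.63, SE 0.26, adjusted p = 0.00460). *Pla2g4c*, a cytosolic phospholipase A2, rose from 1.19 ± 0.332 to 3.02 ± 0.766 CPM (1.34, adjusted p = 0.00888). The secreted type *Pla2g12a* rose from 12.3 ± 1.51 to 20.4 ± 5.72 CPM (0.73, adjusted p = 0.0283), and the genotypes did not overlap for any of the 3. *Pla2g16*, a phospholipase abundant in fat tissue, fell from 52.8 ± 8.58 to 34.8 ± 7.98 CPM (-0.60, adjusted p = 0.0386). *Pla2g10*, another secreted phospholipase A2, was chosen here after its values were seen. It stood at 31.4, 32.8, 24.8, 35.4 and 34.5 CPM in controls and at 0.690, 12.9, 8.17, 10.4 and 0.130 CPM in knockout uteri. All 5 lay below every control, with the lowest levels in uteri 1 and 5. Its log2 fold change of -2.30 (SE 0.82) missed the threshold with all uteri (adjusted p = 0.0996) and in 9 of the 10 fits that left out 1 uterus (adjusted p up to 0.166; -2.02 and 0.127 without knockout uterus 1). It passed without knockout uterus 5 (-1.98, adjusted p = 0.0489) and without uteri 1 and 5 together (-1.60, adjusted p = 0.000311).

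*Ptgs2* rose and *Ptgs1* did not pass the test. *Ptgs2* stood at 3.85, 1.73, 2.82, 5.20 and 2.86 CPM in controls and at 3.25, 16.0, 14.7, 16.3 and 26.6 CPM in knockout uteri. Uteri 2 to 5 were above every control, and uterus 1 lay within the control range. The log2 fold change was 2.22 (SE 0.46, adjusted p = 0.0136), from a mean of 3.29 ± 1.30 to 15.4 ± 8.29 CPM (SD, n = 5). The call held whichever uterus was left out, with log2 fold changes of 1.93 to 2.48 and adjusted p of 0.00200 to 0.0426, and without uteri 1 and 5 together (2.25, adjusted p = 0.000889). An exact permutation test on its log2 CPM, which was two-sided, gave p = 0.0238, where the smallest p it allows is 0.00794. These levels rest on 124 to 1839 counts per library.

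*Ptgs1* stood at 65.1, 45.9, 56.3, 66.6 and 55.4 CPM in controls and at 29.9, 52.2, 44.8, 57.4 and 28.4 CPM in knockout uteri. Uteri 1 and 5 held the lowest levels, and uteri 2 and 4 lay within the control range. The log2 fold change was -0.44 (SE 0.20, adjusted p = 0.178), and -0.17 (adjusted p = 0.464) without uteri 1 and 5. The cyclooxygenase pair can be set side by side per length of exon sequence, as CPM per kilobase (RPKM). On that scale *Ptgs2* made up 4.77%, 3.09%, 4.08%, 6.21% and 4.19% of the summed cyclooxygenase level in controls and 8.42%, 20.6%, 21.7%, 19.4% and 44.3% in knockout uteri. The share was above every control in all 5, including uterus 1, where *Ptgs1* was low and *Ptgs2* was within the control range. *Ptgs1* remained the larger part in every uterus. The summed level itself overlapped, at 15.6 ± 2.42 RPKM in controls and 14.3 ± 3.86 RPKM in knockout uteri (SD, n = 5).

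**Figure D2:**
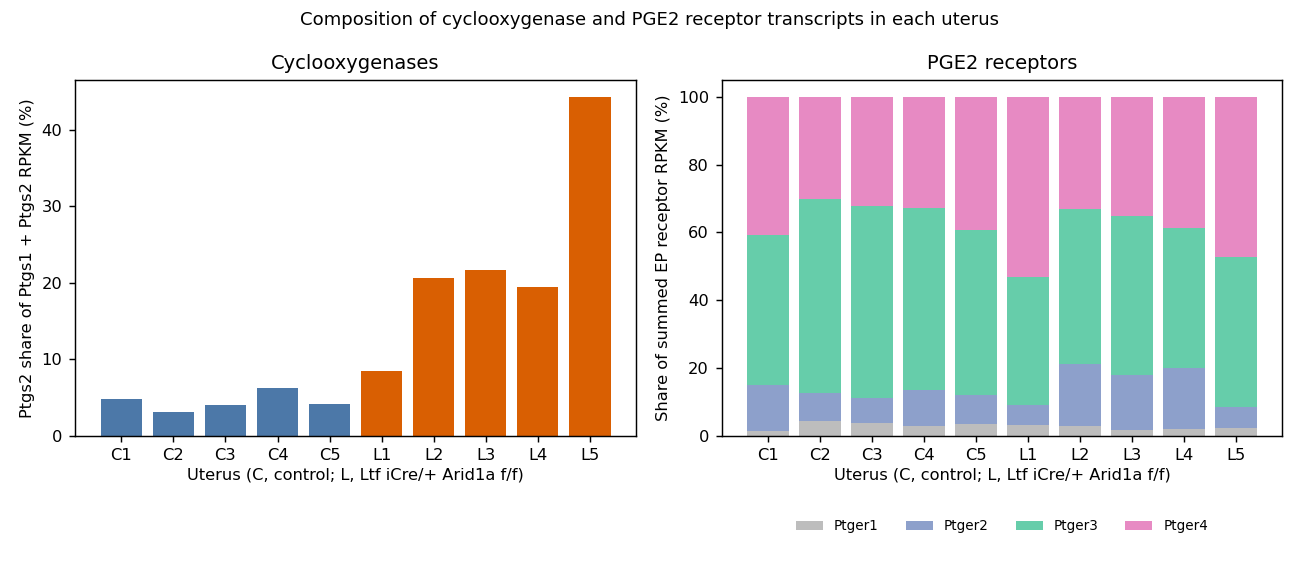
Left, the share (%) of *Ptgs2* in the summed *Ptgs1* and *Ptgs2* level per exon length (RPKM) in each uterus; right, the shares (%) of the 4 PGE2 receptor genes in their summed RPKM, with C for control and L for knockout uteri and their replicate numbers. The *Ptgs2* share is 3.09% to 6.21% in controls and 8.42% to 44.3% in knockout uteri, and *Ptger3* and *Ptger4* make up most of the receptor level in every uterus.

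*Ptges*, the inducible PGE2 synthase, was level between genotypes. It stood at 14.7, 16.4, 13.4, 14.3 and 16.4 CPM in controls and at 17.6, 15.8, 14.2, 15 and 16.5 CPM in knockout uteri, with a log2 fold change of 0.07 (SE 0.10, adjusted p = 0.721). This was the smallest change and the smallest standard error among the 10 genes. *Ptgis*, which encodes prostacyclin synthase, stood at 42.9, 33.0, 35.1, 35.8 and 32.9 CPM in controls and at 57.5, 56.8, 27.9, 30.1 and 25.6 CPM in knockout uteri. Uteri 1 and 2 were above every control and uteri 3, 4 and 5 below every control, so that the log2 fold change of 0.14 (SE 0.23, adjusted p = 0.763) averaged values on both sides. It became -0.04 without uterus 1 and -0.03 without uterus 2.

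Of the 14 cyclooxygenases and terminal synthases, 2 rose, *Ptgs2* and *Akr1b3*, and none fell, beside 5.19% higher and 4.51% lower among all genes. *Akr1b3*, an aldose reductase that can form prostaglandin F2 alpha, rose from 31.1 ± 2.69 to 43.5 ± 9.09 CPM (SD, n = 5; log2 fold change 0.48, adjusted p = 0.0411). The remaining PGE2 synthases, *Ptges2* and *Ptges3*, had log2 fold changes of 0.71 (adjusted p = 0.0696) and 0.25 (adjusted p = 0.167). *Ptges2* lay above every control in all 5 knockout uteri, at 15.6 ± 0.871 CPM in controls and 25.5 ± 10.1 CPM in knockout uteri. Of the 10 fits that left out 1 uterus it passed the threshold in 2 (without knockout uterus 3, adjusted p = 0.0415, and without knockout uterus 4, adjusted p = 0.0488) and missed it in the others (up to 0.137), and without uteri 1 and 5 its log2 fold change was 0.23 (adjusted p = 0.193). The thromboxane synthase gene *Tbxas1* had a log2 fold change of 0.84 (adjusted p = 0.0772), with 0.98 (adjusted p = 0.0448) without knockout uterus 1 and 0.60 (adjusted p = 0.14) without knockout uterus 5, and the prostaglandin D2 synthase gene *Hpgds* one of 0.44 (adjusted p = 0.189). *Ptgds* was below 1 CPM in all but 1 library. The log2 fold changes of *Akr1b7*, *Akr1b8*, *Cbr1* and *Fam213b* were -0.69, -0.07, -0.03 and 0.20, with adjusted p of 0.447 to 0.899.

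*Slco2a1* encodes the carrier that takes prostaglandins up into cells. It stood at 36.4, 34.1, 33.7, 20.8 and 16.9 CPM in controls and at 51.1, 28.2, 18.8, 22.7 and 58.8 CPM in knockout uteri. Uteri 1 and 5 were above every control, and uteri 2, 3 and 4 lay within the control range. The log2 fold change of 0.34 (SE 0.33, adjusted p = 0.574) became -0.29 (adjusted p = 0.521) without uteri 1 and 5. *Slco2a1* lies 7.99 Mb from *Ltf*, the locus that carries iCre, on chromosome 9. Of the 6 carrier genes on the transport list, *Slco3a1* rose from 26.4 ± 4.74 to 37.5 ± 5.01 CPM (SD, n = 5; log2 fold change 0.51, adjusted p = 0.0402) and *Slco2b1* fell from 32.8 ± 4.58 to 18.4 ± 6.96 CPM (-0.83, adjusted p = 0.0316), where 9.70% of all genes passed in either direction.

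*Hpgd*, the dehydrogenase that begins the inactivation of prostaglandins, did not pass the test. It stood at 66.0, 61.3, 57.9, 69.4 and 57.4 CPM in controls and at 66.9, 60.5, 53.2, 39.4 and 43.1 CPM in knockout uteri. Uteri 3, 4 and 5 were below every control, and uteri 1 and 2 were within their range (log2 fold change -0.25, SE 0.14, adjusted p = 0.294). Of the 5 breakdown genes, *Zadh2*, which encodes a prostaglandin reductase, fell from 142 ± 5.27 to 109 ± 14.2 CPM (SD, n = 5; -0.38, adjusted p = 0.0252) with no overlap. *Akr1c18*, known for the breakdown of progesterone as well as for prostaglandin metabolism, rose from 0.333 ± 0.113 to 0.792 ± 0.283 CPM (1.25, adjusted p = 0.0400), a level of 14 to 71 counts per library. These 2 of 5 stand beside the 9.70% of all genes. The reductases *Ptgr1* and *Ptgr2* had log2 fold changes of -0.33 (adjusted p = 0.496) and -0.12 (adjusted p = 0.321).

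Of the 10 prostanoid receptor genes, 4 fell (*Ptger1*, *Ptger3*, *Ptger4* and *Ptgir*), none rose and 6 did not pass the test, beside the 4.51% of all genes that were lower. The median log2 fold change of the 10 was -0.48, against 0.03 over all genes tested. DESeq2 called 5 as lower and 1 as higher, where it called 1972 as lower and 2131 as higher of its 21563 genes. Without knockout uteri 1 and 5, where 9.41% of all genes were called in either direction, 2 were lower and 1 higher (*Ptgdr*, 2.54, adjusted p = 0.0197). The level of *Ptgdr* was low, at 0.304 ± 0.26 CPM in controls and 1.21 ± 0.855 CPM in all 5 knockout uteri (SD, n = 5), or 3 to 161 counts per library.

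*Ptger4* encodes the PGE2 receptor EP4, which raises cyclic AMP. It stood at 95.4, 86.0, 81.2, 77.6 and 96.2 CPM in controls and at 58.1, 59.7, 58.4, 63.0 and 44.0 CPM in knockout uteri. Every knockout uterus was below every control, from a mean of 87.3 ± 8.35 to 56.7 ± 7.31 CPM (SD, n = 5). The log2 fold change was -0.62 (SE 0.11, adjusted p = 0.00559), and the exact permutation test gave its smallest p, 0.00794. The call held whichever uterus was left out (-0.66 to -0.55, adjusted p of 0.00431 to 0.0180) and without uteri 1 and 5 (-0.53, adjusted p = 0.00506). *Ptger4* spans chr15:5206661-5244187 on the minus strand of GRCm38 and shares exon sequence with *Ttc33* and *Gm15937* on the opposite strand. Whether the counting used strand is not given in the sources used here. *Ttc33* was at 40.7 ± 3.55 CPM in controls and 39.3 ± 1.64 CPM in knockout uteri (log2 fold change -0.05, adjusted p = 0.755), and *Gm15937* was at 0.294 and 0.300 CPM.

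*Ptger2* encodes EP2, the other PGE2 receptor that raises cyclic AMP, and its level differed among the knockout uteri more than between genotypes. It stood at 24.7, 18.3, 14.3, 19.3 and 16.6 CPM in controls and at 5.19, 26.1, 20.7, 22.8 and 4.51 CPM in knockout uteri. Uteri 1 and 5 were below every control, and uteri 2, 3 and 4 were within or just above the control range. The log2 fold change was -0.23 (SE 0.44, adjusted p = 0.795), -0.01 without uterus 1, 0.01 without uterus 5 and 0.32 (adjusted p = 0.257) without both.

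*Ptger3*, the gene of the PGE2 receptor EP3, which lowers cyclic AMP, fell from 87.9, 138, 123, 108 and 103 CPM in controls to 35.4, 70.4, 67.1, 57.5 and 35.4 CPM in knockout uteri. The genotypes did not overlap, and the log2 fold change was -1.08 (SE 0.21, adjusted p = 0.0107; -0.79 and 0.00633 without uteri 1 and 5). *Ptger1*, the gene of the calcium-raising EP1, fell from 6.79 ± 2.83 to 2.77 ± 0.887 CPM (SD, n = 5; -1.29, adjusted p = 0.0325). Control uterus 1, at 2.78 CPM, lay among the knockout values. Per exon length, the 4 PGE2 receptors summed to 35.1 to 42.7 RPKM in controls and 14.0 to 27.1 RPKM in knockout uteri, with no overlap. *Ptger3* made up 52.1 ± 5.56% of that sum in controls and 43.2 ± 3.71% in knockout uteri (SD, n = 5), and *Ptger4* made up 35.1 ± 4.67% and 41.4 ± 8.47%. The *Ptger3* share overlapped between genotypes. *Ptger4* had the larger share in knockout uteri 1 (53.1% against 37.8%) and 5 (47.2% against 44.4%). With the longest annotated transcript as the length, its mean share in knockout uteri was also the larger (44.8% against 42.3%).

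*Ptgfr*, the gene of the prostaglandin F2 alpha receptor, stood at 41.5, 48.7, 41.8, 52.7 and 42.1 CPM in controls and at 16.8, 36.8, 38.0, 27.3 and 38.7 CPM in knockout uteri. All 5 were below every control (exact permutation p = 0.00794), but the log2 fold change of -0.52 (SE 0.20) did not pass the test adjusted over all genes (adjusted p = 0.120). The prostacyclin receptor gene *Ptgir* fell from 5.64 ± 2.38 to 2.41 ± 0.642 CPM (SD, n = 5; -1.23, adjusted p = 0.0350). The calls of *Ptger1* and *Ptgir* were lost in most fits that left out 1 uterus, *Ptger1* in 8 of 10 (adjusted p up to 0.0802, without control 2) and *Ptgir* in 6 of 10 (up to 0.0885, without control 2). *Ptger3* was called in all 10. The thromboxane receptor gene *Tbxa2r* had a log2 fold change of 0.15 (adjusted p = 0.761), and the prostaglandin D2 receptor genes *Ptgdr* and *Ptgdr2* had 1.98 (adjusted p = 0.0978) and -0.43 (adjusted p = 0.362). *Ppard*, a nuclear receptor for which prostacyclin is a proposed ligand, had -0.26 (adjusted p = 0.103). The endothelial markers were lower in the same uteri, and the muscle markers, none of which passed the test, had the same median log2 fold change as the receptors (-0.48). The part of either in the lower receptor levels was not tested.

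**Figure D3:**
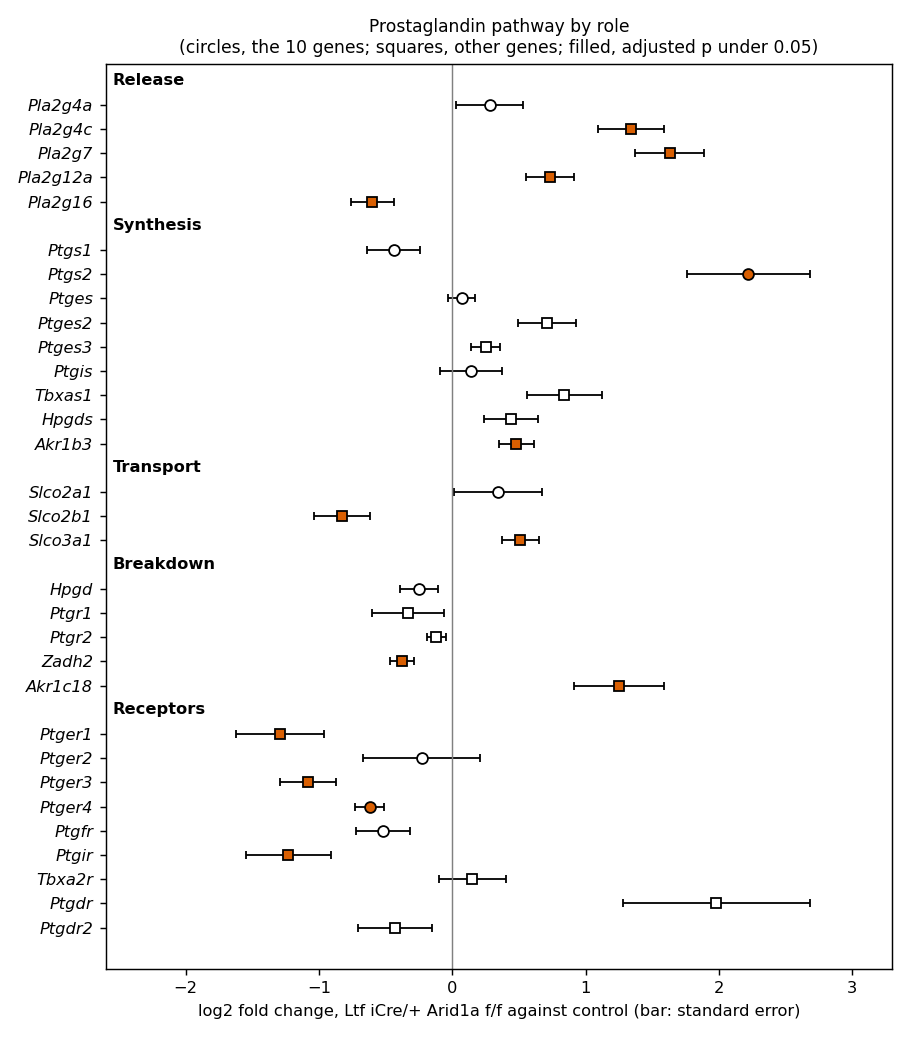
Log2 fold change of knockout against control uteri (x axis, bars for the standard error, 5 uteri per genotype) for the 10 prostaglandin genes (circles) and for other genes of prostanoid release, synthesis, transport, breakdown and reception (squares), grouped by role, with filled symbols for an adjusted p under 0.05. Of the genes plotted *Ptgs2* is highest at 2.22, and the filled prostanoid receptors, *Ptger1*, *Ptger3*, *Ptger4* and *Ptgir*, all lie below 0, from -1.29 to -0.62.

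Per exon length, the control uterus held most *Hpgd* (37.1 ± 3.09 RPKM, SD, n = 5), and then *Pla2g4a* (17.9 ± 3.56), *Ptgs1* (14.9 ± 2.15), *Ptgis* (14.0 ± 1.60), *Ptger4* (13.1 ± 1.26), *Ptgfr* (6.69 ± 0.753), *Ptges* (3.83 ± 0.338), *Ptger2* (3.59 ± 0.749), *Slco2a1* (2.10 ± 0.656) and *Ptgs2* (0.718 ± 0.285). The ranges of *Pla2g4a*, *Ptgs1*, *Ptgis* and *Ptger4* overlapped, as did those of *Ptges* and *Ptger2*. In knockout uteri *Ptgs2*, at 3.35 ± 1.81 RPKM, was by its mean no longer the lowest of the 10. Its range there, 0.709 to 5.81 RPKM, overlapped those of *Ptger2*, *Slco2a1*, *Ptges* and *Ptgfr*. *Hpgd* (31.3 ± 6.84) and *Pla2g4a* (21.7 ± 8.01) stayed the highest by their means. With the longest annotated transcript as the length in place of all exons, *Ptger4* came to 23.1 RPKM in controls and moved ahead of *Ptgs1* (20.2) and *Ptgis* (17.1). On that length *Ptgs2* had the lowest mean of the 10 in controls and also in knockout uteri (3.45 RPKM, beside 4.31 for *Ptger2*). Its place in knockout uteri thus depends on the length used. So does the order of *Pla2g4a* and *Hpgd* there, at 40.2 and 31.3 RPKM with the longest transcript.

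Beyond the 10, the 7 lists of the wider pathway held 72 more genes, of which 69 could be tested and 18 were called, 9 higher and 9 lower, beside the 9.70% of all genes. Their median log2 fold change was 0.20. DESeq2 called 27, where it called 19.0% of all its genes. Without knockout uteri 1 and 5, where 9.41% of all genes were called, the count was again 18, but not of the same genes. *Pla2g12a*, *Pla2g16*, *Akr1b3*, *Akr1c18*, *Ptger1* and *Ptgir* lost the call there, and others, *Pla2g10*, *Ptgdr* and *Lpar3* among them, gained it. The count was 6, 10, 8 and 7 without control 2, 3, 4 and 5, and 11 without knockout uterus 1. Among all genes these fits called 1204, 1248, 1414, 1637 and 1952, against 2438 with all uteri. *Pla2g4c*, *Pla2g7*, *Ptger3*, *Alox15*, *Alox8* and *Ltb4r1* were called whichever uterus was left out. The other 12 lost the call in at least 1 such fit, with adjusted p of up to 0.0977, and most of them in many. Of these 10 fits, *Pla2g16*, *Slco2b1*, *Slco3a1* and *Ptger1* kept the call in 2, and *Akr1b3*, *Akr1c18* and *Lpar2* in 3. *Dpep1* and *Ptgir* kept it in 4, *Pla2g12a* in 5, *Plpp3* in 6 and *Zadh2* in 7. The genotypes overlapped for *Pla2g16*, *Slco2b1*, *Slco3a1*, *Akr1c18*, *Ptger1*, *Ptgir* and *Lpar2*.

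In the lipoxygenase and leukotriene branch, which also starts from arachidonic acid, 2 of 17 genes rose and 2 fell, beside 5.19% higher and 4.51% lower among all genes. *Alox15*, the gene of a lipoxygenase that oxygenates arachidonic acid, fell from 108 ± 7.51 to 48.2 ± 11.5 CPM (SD, n = 5; log2 fold change -1.16, adjusted p = 0.00167), with every knockout uterus below every control. *Dpep1*, the gene of a dipeptidase that acts on leukotriene D4, fell from 17.0 ± 4.11 to 6.22 ± 3.66 CPM (-1.45, adjusted p = 0.0356). *Ltb4r1*, the gene of a leukotriene B4 receptor, rose from 0.790 ± 0.247 to 3.40 ± 1.85 CPM (2.10, adjusted p = 0.0107). *Alox8*, another lipoxygenase gene, rose from 0.0544 ± 0.0361 to 0.457 ± 0.266 CPM (3.03, SE 0.59, adjusted p = 0.0104), at 1 to 55 counts per library.

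Lysophosphatidic acid, a lipid that acts through the receptor LPA3, is known to regulate uterine cyclooxygenase 2 around implantation, and 1 of the 6 genes of that list rose and 1 fell, beside the 9.70% of all genes called in either direction. The receptor gene *Lpar2* rose from 10.3 ± 2.81 to 16.7 ± 2.29 CPM (SD, n = 5; log2 fold change 0.69, adjusted p = 0.0313). *Plpp3*, the gene of a phosphatase that degrades lysophosphatidic acid, fell from 275 ± 18.4 to 188 ± 38.4 CPM (-0.55, adjusted p = 0.0281). *Lpar3*, chosen after its values were seen, stood at 56.3, 60.2, 42.1, 52.0 and 60.7 CPM in controls and at 6.44, 41.9, 30.9, 31.6 and 8.32 CPM in knockout uteri. All 5 were below every control and uteri 1 and 5 were the lowest. Its log2 fold change was -1.19 (SE 0.44, adjusted p = 0.113) with all uteri, passed the threshold in none of the 10 fits that left out 1 uterus (adjusted p of 0.0631 to 0.193), and was -0.64 (adjusted p = 0.0177) without knockout uteri 1 and 5.

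**Figure D4:**
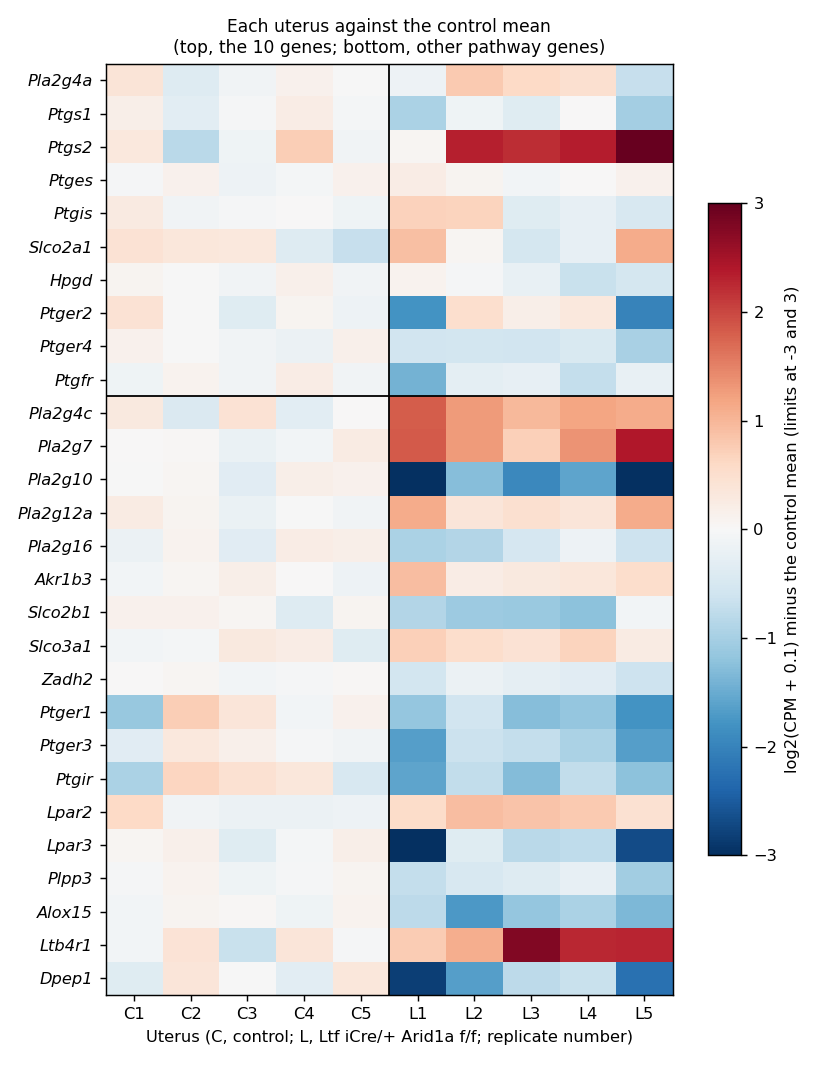
Difference of log2(CPM + 0.1) from the control mean in each control (C) and knockout (L) uterus, for the 10 prostaglandin genes (top) and other pathway genes named in the text (bottom), with the color scale limited to -3 and 3. *Ptger4* is below the control mean in all 5 L columns, whereas *Ptger2* is low in L1 and L5 only, at 5.19 and 4.51 CPM.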

How the data were processed

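The authors trimmed the paired end reads of the 10 mRNA libraries (Trim Galore 0.6.4, cutadapt 1.18), aligned them to GRCm38 with STAR 2.7.3a, counted reads per gene in its GeneCounts mode, and deposited raw, unnormalized counts for 45706 Ensembl identifiers. The gene annotation and strand setting are not given in the sources used here. Symbols and positions were taken from GENCODE M21, which held 45143 of the identifiers. Where a gene averaged 1 count per library or more, it was tested with edgeR 4.0.16 in R 4.3.3 (TMM normalization, quasi-likelihood test on genotype alone, Benjamini-Hochberg correction at 0.05). CPM values use TMM library sizes, and RPKM divides them by the length of all annotated exons of a gene. Exact permutation tests used log2 CPM with a prior count of 2. DESeq2 1.42.0 was an alternative, as were other normalizations and filters, a replicate block and leaving out each uterus. The scripts were tested on simulated data. Named were the 10 genes, called genes of the 7 pathway lists, and further prostanoid receptors, synthases and breakdown enzymes. The 10 genes and the lists were chosen with earlier results of these data known, and the fit without *Ltf* iCre/+ *Arid1a* f/f uteri 1 and 5 after seeing the data. No libraries were duplicates (chi-square of at least 36.1 per gene between libraries of a genotype). At 59296537 to 72702411 counts per library, counting error is small beside the spread between uteri for all 10 genes. P-values measure the spread between these uteri.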

Additional observations from a re-analysis of the deposited data

Results flagged for a closer look

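In 86 groups of 5 uteri (43 named genes in each genotype), the highest or lowest uterus stood apart from its group in 6 by Dixon's criterion, which chance alone meets in about 1 of 20 groups. Of the 10 prostaglandin genes, *Ptgis* was highest in control 1, at 42.9 CPM against 32.9 to 35.8 CPM in the other controls. *Ptger4* was lowest in *Ltf* iCre/+ *Arid1a* f/f (knockout) uterus 5, at 44.0 CPM against 58.1 to 63.0 CPM. *Ptgds*, a prostaglandin D2 synthase gene, was at 2.50 CPM in knockout uterus 5 against 0.204 to 0.372 CPM. *Slco2b1* was at 24.7 CPM in control 4 against 33.9 to 35.8 CPM, and at 30.6 CPM in knockout uterus 5 against 13.9 to 17.5 CPM. *Lpar2* was at 15.3 CPM in control 1 against 8.85 to 9.41 CPM. Of the 6, 3 were in knockout uterus 5.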

How the results depend on the processing

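Of 170 log2 fold changes of the 10 genes under alternative settings, 162 kept their direction and their side of the threshold, and all 10 exact permutation results did so with a prior count of 0.5. Other normalizations and filters changed no call among the 10. Same-numbered uteri correlated in their deviations by 0.028, 0.082, -0.095, 0.033 and 0.166. Only numbers 2 and 5 did so best with their own number. These low correlations showed no clear pairing by the replicate numbers of the labels. They cannot settle whether same-numbered uteri shared a litter or batch. With the replicate number as a block, 1 of the 10 genes was called and 0 as higher (*Ptgs2* 2.10, adjusted p = 0.0531), and 845 of all genes were higher against 1305. DESeq2 called 4103 genes (2131 higher, 1972 lower) against 2438, and 14 of the other pathway genes as higher. Without *Ltf* iCre/+ *Arid1a* f/f (knockout) uteri 1 and 5, 2 of the 10 were higher (*Ptgs2* and *Pla2g4a*, the latter 0.60), *Ptges* turned to -0.01, *Ptger2* to 0.32 and *Slco2a1* to -0.29. Leaving out 1 uterus gave 1204 to 2381 called genes (594 to 1296 higher, 610 to 1085 lower) and 6 to 16 other pathway genes (4 to 9 higher, 2 to 7 lower), always with 2 of the 10 called. *Ptgis* then ranged from -0.04 to 0.26, at -0.04 and -0.03 without knockout uterus 1 and 2, and *Ptger2* from -0.48 to 0.01, at 0.01 without uterus 5. The longest transcript as length moved the control RPKM of *Ptgs1* to 20.2, *Ptgis* to 17.1, *Ptger2* to 5.06, *Ptger4* to 23.1, *Pla2g4a* to 33.1 and *Slco2a1* to 3.99. The causes were not tested, except that fits with fewer uteri rest on fewer samples. With 5 uteri per genotype, the spread between uteri and not the read depth limits the comparisons of the 10 genes. This does not cover genes with few counts, such as *Alox8* at 1 to 55 per library.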
